A study of Arabidopsis thaliana with 10 samples.

Results

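Transcript levels of 6 regulators of greening were examined across RNA sequencing libraries of whole Arabidopsis thaliana seedlings. The genes are GLK1 (AT2G20570), GLK2 (AT5G44190), GNC (AT5G56860), CGA1 (AT4G26150), HY5 (AT5G11260) and GUN1 (AT2G31400). They were taken by locus identifier from a count table of 33602 genes, and all 6 were present and passed the filter on low counts. The 10 libraries fall into 5 groups of 2. The groups are dal-2, a mutant allele of DAL, grown without Dex (dexamethasone) and collected at 20 and 21 days; DIF-OX2, by its name an overexpressor of DIF, on 10 µM Dex at 12 days; DIF-OX2 without Dex at 12 days; wild-type Col-0 on 10 µM Dex at 12 days; and Col-0 without Dex at 12 days. Both mutant and transgenic line are in the Col-0 background, and every plate held sucrose medium under long days. All groups, with and without Dex, received 0.1% ethanol, the solvent of the inducer. All seedlings were harvested with 4 open true leaves, so dal-2 was matched to Col-0 by leaf number and not by age, and genotype and age cannot be told apart in that comparison. Each genotype is a single allele or line, no source used here names the promoter that drives DIF in DIF-OX2, and nothing says that the 2 libraries of a group came from separate cultures, so p-values measure the spread between these libraries. The series title names DIF as part of an SCF ubiquitin ligase that targets the DAL protein for degradation. The design sets the dal-2 mutant and induction of DIF against wild type.

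GLK1 and GLK2 are paralogous transcription factors of the GARP family that switch on nuclear genes for chlorophyll synthesis and light harvesting, and their transcripts are known to fall when plastids are damaged. GNC and CGA1 are paralogous GATA-type zinc finger factors of the B class that respond to light and cytokinin and promote chloroplast development. HY5 is a bZIP factor that promotes light-driven development and is marked for degradation in darkness by the COP1/SPA complex, so its protein need not follow its transcript. GUN1 is a pentatricopeptide repeat protein inside the plastid that integrates signals sent back to the nucleus, and it too is known for control at the protein level.

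The members lie on chromosomes 2, 4 and 5, and the RefSeq annotation of TAIR10.1 places no other gene over any of them. GLK1 spans chr2:8855302-8857758 on the plus strand and GLK2 spans chr5:17798262-17800926 on the plus strand. GNC spans chr5:22989216-22991530 on the minus strand and CGA1 spans chr4:13253084-13255106 on the plus strand. HY5 spans chr5:3593335-3595073 and GUN1 spans chr2:13386954-13390854, both on the minus strand. Because reads from near-identical copies can be shared between them, the 2 pairs of paralogues were compared over their coding sequences. GLK1 and GLK2 were identical at 67.5% of 1124 aligned bases with a longest shared run of 24 bases, and GNC and CGA1 were identical at 77.5% of 1022 aligned bases with a longest shared run of 25 bases. The stretch around the longest shared run of each pair is printed below, and how well counts of the paralogues separate there was not tested. Capitals mark bases shared by the pair, and each stretch is coding sequence joined across 2 exons. The GLK stretch is 84 bases long with 68 shared, and lies within chr2:8856374-8856535 for GLK1 and chr5:17799340-17799622 for GLK2. The GATA stretch is 85 bases long with 76 shared, and lies within chr5:22990030-22990362 for GNC and chr4:13253911-13254304 for CGA1.
GLK1: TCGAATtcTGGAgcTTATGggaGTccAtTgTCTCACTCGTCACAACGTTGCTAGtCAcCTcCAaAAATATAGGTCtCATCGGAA
GLK2: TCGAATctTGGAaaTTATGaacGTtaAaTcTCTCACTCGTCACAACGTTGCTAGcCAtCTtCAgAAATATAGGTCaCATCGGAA
GNC: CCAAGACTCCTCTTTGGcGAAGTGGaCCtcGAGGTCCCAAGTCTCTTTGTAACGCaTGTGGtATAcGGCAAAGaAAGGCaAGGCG
CGA1: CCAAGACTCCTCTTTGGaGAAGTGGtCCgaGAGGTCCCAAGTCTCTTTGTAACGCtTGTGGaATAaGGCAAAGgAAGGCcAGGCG

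GLK1 and GLK2 both fell in dal-2, so the 250 bases before their annotated starts are shown, from RefSeq sequence of TAIR10.1 (chr2:8855052-8855301 and chr5:17798012-17798261, plus strand). Capitals mark the ACGT core of light-responsive elements, 145 bases before the start of GLK1, and the GATA-type box GATAAG on the opposite strand, 49 bases before it.
GLK1: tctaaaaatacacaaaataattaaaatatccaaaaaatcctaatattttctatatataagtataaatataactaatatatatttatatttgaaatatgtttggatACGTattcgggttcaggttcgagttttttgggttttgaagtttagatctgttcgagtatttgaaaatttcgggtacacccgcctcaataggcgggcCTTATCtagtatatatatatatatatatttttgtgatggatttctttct
GLK2: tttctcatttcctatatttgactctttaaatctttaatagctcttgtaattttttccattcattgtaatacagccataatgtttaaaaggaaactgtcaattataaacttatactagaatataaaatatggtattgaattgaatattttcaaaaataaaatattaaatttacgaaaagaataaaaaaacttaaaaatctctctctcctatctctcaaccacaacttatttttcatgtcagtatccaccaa
Both strands were searched for 5 short motifs in the same window of 27443 annotated protein-coding genes of the nuclear chromosomes. ACGT was found in 3 of the 6 members (GLK1, GNC and HY5) and in 44.1% of all windows, and GATAAG in GLK1 alone and in 12.3% of all windows. The G-box CACGTG, which contains ACGT, was in none of the 6 and in 6.49% of all windows. CCAATC was likewise in none of the 6 and in 10.2% of all windows, and the evening element AAAATATCT in none of the 6 and in 2.36%. A missing motif says only that these letters are not in this window.

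Depth was 8805568 to 16556322 counts per library. DAL (AT2G33430), the gene hit in dal-2, had 29.5 and 35.7 CPM (counts scaled to a common library size, with TMM factors) in dal-2 and 59.3 to 114.8 CPM in the other 8 libraries, and its log2 fold change in dal-2 against Col-0 was -1.65 (edgeR adjusted p = 3.24e-04). DAL was also lower in DIF-OX2 on Dex, with 72.6 and 59.3 CPM, against 99.6 and 114.8 CPM in Col-0 on Dex (log2 fold change -0.70, edgeR adjusted p = 0.0144). The dal-2 libraries differed from each other more than the libraries of any other group did, with a standard deviation of log2 replicate differences of 0.776, against 0.385 to 0.471 in the other groups. Replicate 1 of dal-2 stood apart in the circadian clock genes. The morning genes CCA1 and LHY had 4.85 and 1.3 CPM there, against 132.7 to 438.9 and 177.3 to 396.7 CPM in the 8 libraries of 12-day seedlings. The evening genes TOC1, PRR5, ELF4 and LUX had 162.7, 86.0, 90.4 and 87.8 CPM in that library. In the 12-day libraries TOC1 ranged from 14.8 to 28.7 CPM, PRR5 from 0.633 to 2.25, ELF4 from 0.317 to 2.91 and LUX from 5.58 to 8.32. Replicate 2 of dal-2 lay nearer to the 12-day libraries, with 155.3 CPM of CCA1 and 0.278 CPM of ELF4. It was still outside their range for LHY (90.1 CPM), TOC1 (32.6 CPM) and PRR7, which had 222.1 CPM there, against 71.3 to 108.9 CPM in the 12-day libraries. Harvest times are not given, and the dal-2 results of the members and the counts of the gene lists are therefore given with and without replicate 1.

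**Figure D1:**
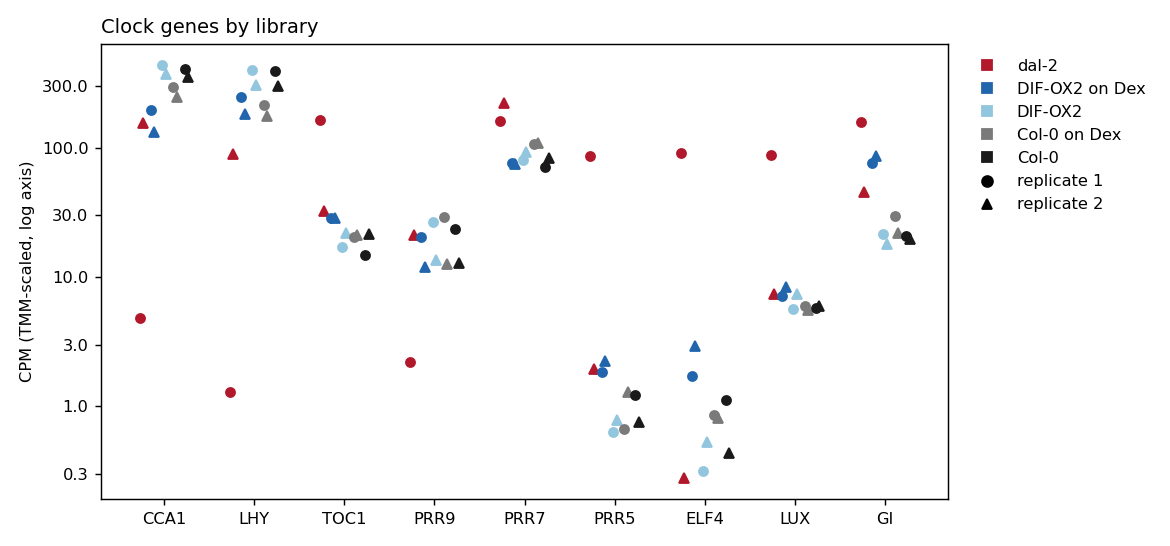
Levels of 9 clock genes in each library, in TMM-scaled CPM on a log axis. Circles are replicate 1 and triangles replicate 2. Replicate 1 of dal-2 (red circles) lies below all other libraries for CCA1, LHY and PRR9 and above them for TOC1, PRR5, ELF4, LUX and GI.

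Markers of the green shoot (RBCS1A, RCA and LHCB3) summed to 1275 and 5988 CPM in dal-2 and to 11470 to 16700 CPM in DIF-OX2 on Dex, against 32380 to 35840 CPM in the other 6 libraries. All 3 were detected in every library. The 8 root markers summed to 45.0 to 56.4 CPM in dal-2 and 73.1 to 101.9 CPM elsewhere, with no marker at 0. The 4 flower markers summed to 2.93 to 6.77 CPM in dal-2 and 0.324 to 1.19 CPM elsewhere, where up to 2 of them were at 0. In the dal-2 comparison 3 of 3 green shoot markers and 2 of 8 root markers were called lower, against 18% of all tested genes. The 2 tested flower markers were both called higher, against 15.9% of all tested genes, on few counts. AG had 12 and 14 counts in dal-2, against 0 and 1 in Col-0. PI had 18 and 97 counts in dal-2 replicates 1 and 2, against 1 and 2 in Col-0. Without dal-2 replicate 1 the root count was 4 lower and without replicate 2 it was 1 lower, while the green shoot and flower counts stayed at 3 and 2. In DIF-OX2 on Dex against Col-0 on Dex, edgeR called 0 markers of these 3 lists, against 22% of all tested genes. At an unadjusted p under 0.05 there were 3 root, 0 flower and 2 green shoot markers, against 35.9% of all tested genes. Of the 9 clock genes, 6 were called higher in dal-2, and 3 higher and 2 lower without replicate 1. GI alone was called in DIF-OX2 on Dex, at 81.2 ± 6.44 CPM, against 25.7 ± 5.45 CPM in Col-0 on Dex (log2 fold change 1.67, edgeR adjusted p = 0.0402). The part of tissue makeup in the results below was not tested, and in RNA of whole seedlings fewer green cells and less RNA per green cell cannot be told apart.

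In Col-0 without Dex the members fell into a high and a low class. Per length of gene, GLK2 had 107.3 ± 27.5 RPKM (CPM per kilobase of exon, SD, n = 2), GUN1 101.3 ± 0.934 RPKM and GLK1 90.5 ± 34.5 RPKM. CGA1 had 17.8 ± 4.21 RPKM, GNC 14.4 ± 2.36 RPKM and HY5 12.5 ± 2.01 RPKM. Within each class the ranges of neighbouring genes overlapped. GLK1 was the member that differed most between the Col-0 replicates, at 199.0 CPM in replicate 1 and 114.4 CPM in replicate 2. Its replicate 1 value was the higher one in all 4 groups of 12-day seedlings, by 1.38 to 1.74 times. The clock gene PRR9 was also higher in replicate 1 in those 4 groups, by 1.69 to 2.31 times. In dal-2 both ratios lay below 1, at 0.739 for GLK1 and 0.104 for PRR9. The part of harvest time in the levels of GLK1 and the other members was not tested.

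**Figure D2:**
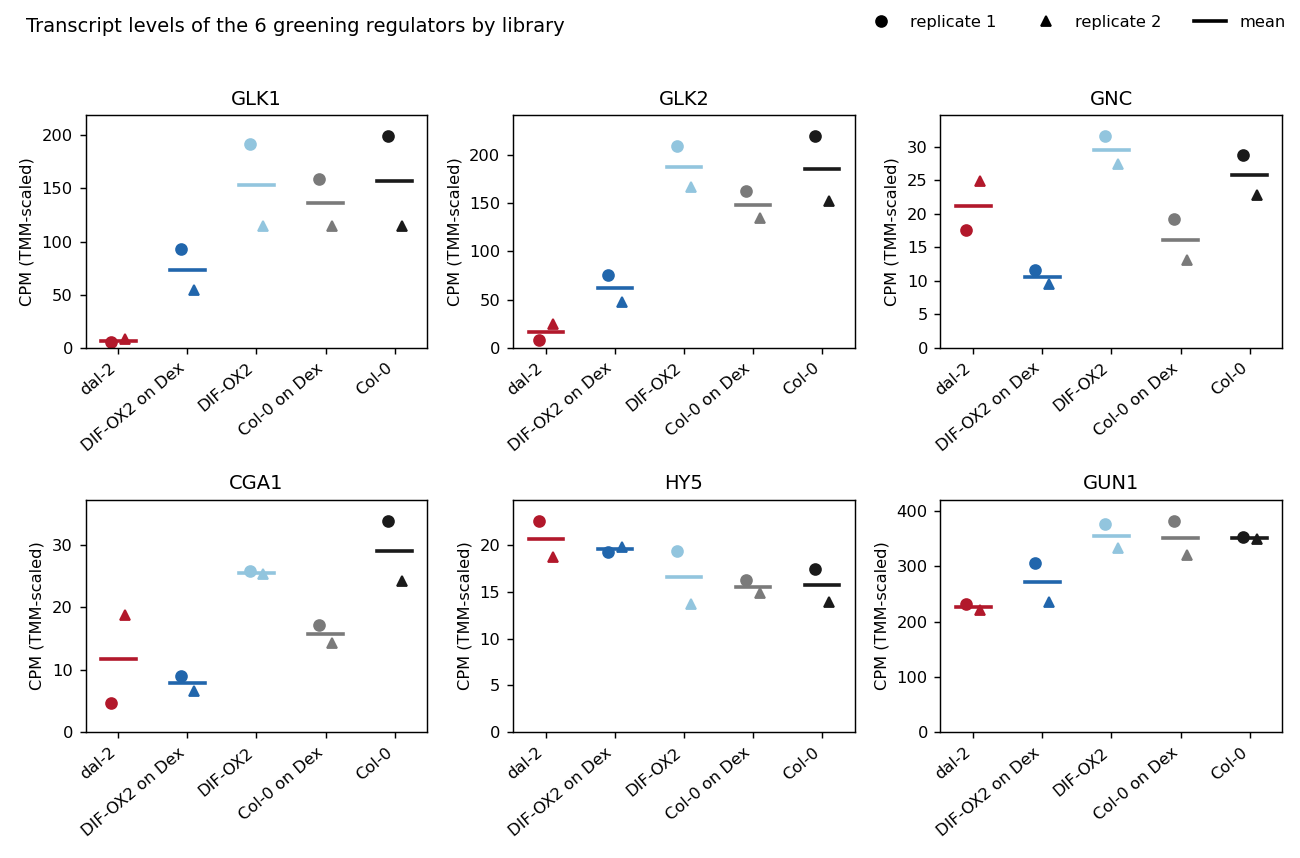
Level of each of the 6 regulators in every library, in TMM-scaled CPM on linear axes that start at 0. Circles are replicate 1, triangles replicate 2, and bars the mean of both. GLK1 and GLK2 are lowest in dal-2 and next lowest in DIF-OX2 on Dex, GNC is lowest in DIF-OX2 on Dex, and HY5 keeps between 13.7 and 22.6 CPM throughout.

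The dal-2 comparison asks which regulators differ between the dal-2 mutant and wild type, which also differed in age. The GLK pair fell by far the most, GUN1 fell slightly, and GNC, CGA1 and HY5 did not pass the test. Of the 6 members, 3 were called at an adjusted p of 0.05, all lower, while 33.9% of all 20681 tested genes were called in either direction and 18% were called lower. GLK1 had 5.66 and 7.66 CPM in dal-2, against 199.0 and 114.4 CPM in Col-0. Both mutant libraries lay far below both wild-type libraries. The log2 fold change was -4.55 (SE 0.440, 95% interval -5.56 to -3.54, edgeR adjusted p = 3.51e-04), a 23.4-fold lower level and the 115th lowest fold change of all tested genes. These levels in dal-2 rest on 83 and 138 counts, against 1786 and 1061 counts in Col-0.

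GLK2 had 8.05 and 24.8 CPM in dal-2, against 219.5 and 152.2 CPM in Col-0. The groups did not overlap, but the mutant libraries differed 3-fold between themselves, with replicate 1 the lower. Its log2 fold change was -3.49 (SE 0.498, 95% interval -4.64 to -2.35, edgeR adjusted p = 0.00169), an 11.3-fold lower level. Without dal-2 replicate 1, the library with the shifted clock genes, the log2 fold change was -4.36 for GLK1 and -2.92 for GLK2. Without dal-2 replicate 2 it was -4.80 for GLK1 and -4.54 for GLK2, and both genes passed the test in every case. The pair together reached 7.92 and 18.7 RPKM in dal-2, against 241.6 and 154.0 RPKM in Col-0.

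Neither GATA factor passed the test in dal-2. GNC had 17.6 and 24.8 CPM in dal-2, against 28.7 and 22.8 CPM in Col-0. The 2 groups overlapped, and the log2 fold change of -0.28 did not pass the test (SE 0.238, 95% interval -0.82 to 0.27, edgeR adjusted p = 0.394). It was -0.06 without dal-2 replicate 1 and -0.56 without dal-2 replicate 2, and was called in neither fit. CGA1 had 4.64 and 18.7 CPM in dal-2, against 33.9 and 24.2 CPM in Col-0. Both mutant libraries were lower, but 4-fold apart, and the log2 fold change of -1.30 missed the threshold (SE 0.506, 95% interval -2.46 to -0.14, edgeR adjusted p = 0.0797). That value depended on the mutant library used. It was -0.64 (adjusted p = 0.0635) without dal-2 replicate 1 and -2.65 (adjusted p = 1.79e-04) without dal-2 replicate 2. DESeq2 called CGA1 lower (adjusted p = 0.0321), as did limma-voom (adjusted p = 0.0487).

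HY5 had 22.6 and 18.8 CPM in dal-2, against 17.5 and 13.9 CPM in Col-0. The mutant libraries were both above the wild-type ones, and the log2 fold change of 0.40 did not pass the test (SE 0.196, 95% interval -0.05 to 0.84, edgeR adjusted p = 0.150). It was 0.25 without dal-2 replicate 1 and 0.52 without dal-2 replicate 2, again uncalled. GUN1 had 231.8 and 220.3 CPM in dal-2, against 353.5 and 348.9 CPM in Col-0. Its replicates lay close together in both groups, and the log2 fold change of -0.64 was called (SE 0.171, 95% interval -1.03 to -0.24, edgeR adjusted p = 0.0230), a 1.55-fold lower level. The GUN1 call ended without Col-0 replicate 1 (adjusted p = 0.112), without Col-0 replicate 2 (adjusted p = 0.105) and in a fit of the 4 dal-2 and Col-0 libraries alone (adjusted p = 0.100), with log2 fold changes of -0.57, -0.59 and -0.64. Without either dal-2 library the call held, at -0.68 without replicate 1 and -0.61 without replicate 2.

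**Figure D3:**
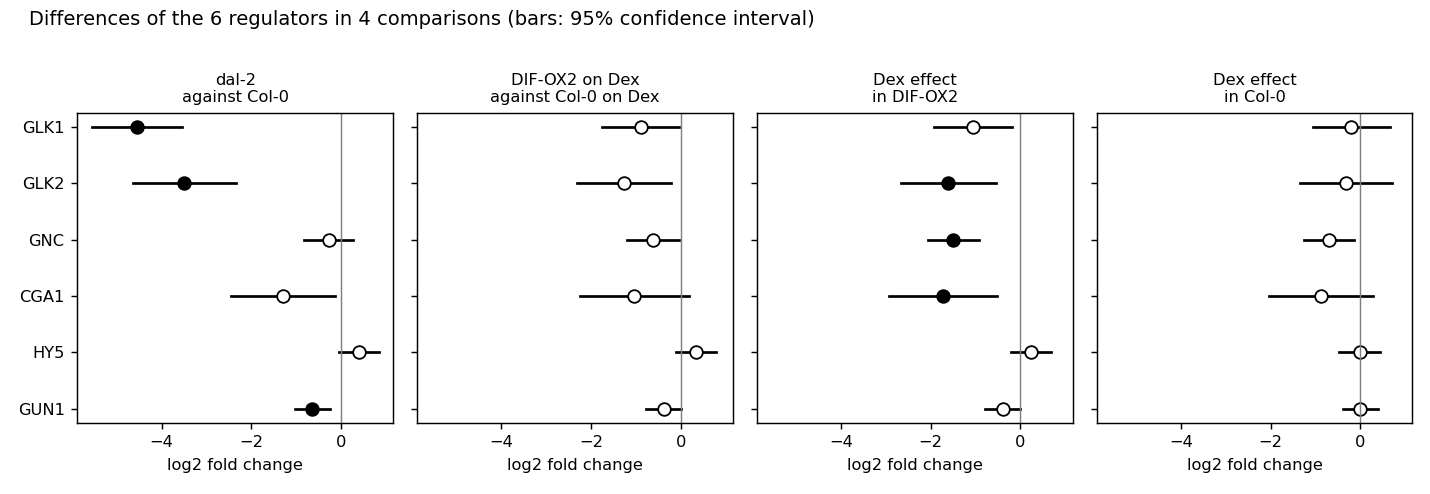
Log2 fold changes of the 6 regulators in 4 comparisons, with 95% confidence intervals from the edgeR fit. Filled points were called at an adjusted p of 0.05 over all tested genes, and open points were not. GLK1 and GLK2 in dal-2 lie at -4.55 and -3.49, and no other point lies below -2.

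The DIF-OX2 comparison asks which regulators change when DIF is induced. The locus of DIF is not named in the labels, so the induction was not checked by its own transcript. With both genotypes on Dex, all 6 members had groups that did not overlap, 5 lower and HY5 higher. Of all tested genes, 69.8% did not overlap in either direction and 34.1% were lower without overlap. With edgeR on all 10 libraries, 0 of the 6 members were called while 22% of all tested genes were called and 10.4% of all tested genes were called lower. At an unadjusted p under 0.05 there were 3 (GLK1, GLK2 and GNC), against 35.9% of all genes. DESeq2 called 1 (GLK2, adjusted p = 0.0226) and limma-voom called 0.

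GLK1 had 92.5 and 54.5 CPM in DIF-OX2 on Dex, against 158.5 and 114.7 CPM in Col-0 on Dex. Its log2 fold change was -0.90 (SE 0.376, 95% interval -1.76 to -0.03, edgeR adjusted p = 0.126). GLK2 had 75.7 and 47.8 CPM in DIF-OX2 on Dex, against 162.7 and 134.4 CPM in Col-0 on Dex. Both induced libraries lay well below both wild-type ones, and the log2 fold change was -1.27 (SE 0.457, 95% interval -2.32 to -0.22, edgeR adjusted p = 0.0833). CGA1 had 9.05 and 6.56 CPM in DIF-OX2 on Dex, against 17.3 and 14.4 CPM in Col-0 on Dex, a log2 fold change of -1.03 (SE 0.530, 95% interval -2.25 to 0.18, edgeR adjusted p = 0.201). GNC had 11.5 and 9.47 CPM in DIF-OX2 on Dex, against 19.2 and 13.0 CPM in Col-0 on Dex, and its log2 fold change was -0.62 (SE 0.250, 95% interval -1.19 to -0.04, edgeR adjusted p = 0.115). These 4 genes were lower in both induced libraries than in either wild-type library, and none passed the threshold.

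The spread in this fit is estimated over all 5 groups, dal-2 included. Without both dal-2 libraries, GLK2 (adjusted p = 0.00540) and CGA1 (adjusted p = 0.00645) were called lower, with log2 fold changes of -1.27 and -1.04, while the calls over all genes went up to 7065, against 4549 with all 10 libraries. In a fit of the 4 libraries of the comparison, GLK1 (adjusted p = 0.0272), GLK2 (adjusted p = 0.00340) and CGA1 (adjusted p = 0.00585) were called, among 6892 genes. With dal-2 replicate 1 alone left out there were 3 calls among the members (GLK2, GNC and CGA1) and 7102 over all genes, and with dal-2 replicate 2 alone left out there were 2 (GLK2 and CGA1) and 7076. The gain in members called thus stands beside a gain over all genes.

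HY5 had 19.3 and 19.9 CPM in DIF-OX2 on Dex, against 16.3 and 14.9 CPM in Col-0 on Dex. This difference of 0.33 on the log2 scale was not called (SE 0.195, 95% interval -0.12 to 0.78, edgeR adjusted p = 0.262). GUN1 had 306.6 and 234.6 CPM in DIF-OX2 on Dex, against 381.7 and 319.8 CPM in Col-0 on Dex. The induced libraries were both lower than the wild-type ones by a narrow margin, and the log2 fold change of -0.37 was not called (SE 0.171, 95% interval -0.77 to 0.02, edgeR adjusted p = 0.155).

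Within the DIF-OX2 line, both GATA factors and GLK2 were lower on Dex. Of the 6 members 3 were called, all lower, against 24.3% of all genes in either direction and 11.6% lower. GNC had 11.5 and 9.47 CPM in DIF-OX2 on Dex, against 31.5 and 27.4 CPM in DIF-OX2 without Dex. The groups lay far apart for this gene, and its log2 fold change was -1.50 (SE 0.248, 95% interval -2.06 to -0.93, edgeR adjusted p = 0.00467). CGA1 had 9.05 and 6.56 CPM on Dex, against 25.8 and 25.4 CPM without, a log2 fold change of -1.73 (SE 0.528, edgeR adjusted p = 0.0460). GLK2 had 75.7 and 47.8 CPM on Dex, against 209.5 and 166.6 CPM without, a log2 fold change of -1.61 (SE 0.461, edgeR adjusted p = 0.0370). GLK1 had 92.5 and 54.5 CPM on Dex, against 191.7 and 114.2 CPM without, and its log2 fold change of -1.06 was not called (SE 0.377, edgeR adjusted p = 0.0742), though it was by DESeq2 (adjusted p = 0.0267). GUN1 was lower without overlap (306.6 and 234.6 CPM on Dex, 377.0 and 333.4 CPM without) and was not called (log2 fold change -0.39, edgeR adjusted p = 0.131). HY5 overlapped (19.3 and 19.9 CPM on Dex, 19.4 and 13.7 CPM without).

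Of these 3 calls, that of GNC ended only without DIF-OX2 on Dex replicate 2 (adjusted p = 0.0555). That of GLK2 ended without either library of DIF-OX2, of DIF-OX2 on Dex or of Col-0 on Dex (adjusted p = 0.0609 to 0.235). The CGA1 call ended without any single 12-day library (adjusted p = 0.0610 to 0.260).

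Dex alone changed no gene in Col-0 by edgeR, DESeq2 or limma-voom (0% of 20681 called), and 2.74% of genes had an unadjusted p under 0.05. The GATA pair was nevertheless lower without overlap, as were 16.7% of all genes. GNC had 19.2 and 13.0 CPM in Col-0 on Dex, against 28.7 and 22.8 CPM in Col-0 without Dex, and its log2 fold change was -0.69 (SE 0.243, 95% interval -1.24 to -0.13, unadjusted p = 0.0217 and adjusted p = 1.00 by edgeR). CGA1 had 17.3 and 14.4 CPM on Dex, against 33.9 and 24.2 CPM without, a log2 fold change of -0.88 (SE 0.504, 95% interval -2.03 to 0.28). No log2 fold change of GLK1, GLK2, HY5 or GUN1 in Col-0 on Dex went beyond -0.32, and their groups overlapped. The fall of the GATA pair on Dex in DIF-OX2 thus has beside it a lower level on Dex in wild type that did not pass the test.

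Whether Dex acted differently in DIF-OX2 than in Col-0 was tested by the interaction term, which called 0 of the 6 members and 6.33% of all genes. The estimated differences of the Dex effects were -1.29 for GLK2, -0.86 for GLK1, -0.85 for CGA1, -0.81 for GNC, -0.39 for GUN1 and 0.25 for HY5 on the log2 scale. GNC had the lowest unadjusted p (0.0455, adjusted p = 0.200 by edgeR) and was the only 1 of the 6 under 0.05, as were 23.7% of all genes. Neither DESeq2 nor limma-voom called a member. GLK2 was called without both dal-2 libraries (adjusted p = 0.0377), where the calls over all genes were 3681, against 1309 with all 10 libraries. Without Dex, no member was called between DIF-OX2 and Col-0 by edgeR, DESeq2 or limma-voom, with 0.00967% of all genes called. None of the 6 had an unadjusted p under 0.05, against 1.27% of all genes. The 6 log2 fold changes lay between -0.18 for CGA1 and 0.19 for GNC.

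In order of level, Col-0, DIF-OX2 and Col-0 on Dex held the first 3 places for GLK1, in that order. For GLK2 the order was DIF-OX2, Col-0 and Col-0 on Dex. Each of these groups overlapped its neighbour in the order of its gene. DIF-OX2 on Dex lay below them without overlap, and dal-2 lay below that without overlap. For GNC the lowest group was DIF-OX2 on Dex (10.5 ± 1.45 CPM), below Col-0 on Dex (16.1 ± 4.35 CPM) without overlap, while dal-2 (21.2 ± 5.10 CPM) overlapped Col-0 without Dex and Col-0 on Dex. For CGA1 the means of dal-2 (11.7 ± 9.95 CPM) and DIF-OX2 on Dex (7.80 ± 1.76 CPM) were the lowest and overlapped. HY5 had its highest means in dal-2 (20.7 ± 2.70 CPM) and DIF-OX2 on Dex (19.6 ± 0.407 CPM), and every neighbouring pair of groups overlapped. GUN1 followed the order of GLK2 at a smaller scale, from 226.0 ± 8.14 CPM in dal-2 and 270.6 ± 50.9 CPM in DIF-OX2 on Dex to 350.7 CPM or more in the other 3 groups.

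The effect of dal-2 was then set against the effect of DIF induction in 1 test, with each genotype against its own wild type. GLK1 was the only member called, with a difference of -3.65 on the log2 scale (SE 0.556, 95% interval -4.93 to -2.38, edgeR adjusted p = 0.0107), against 6.07% of all genes called. The call ended without Col-0 on Dex replicate 2 (difference -3.38, adjusted p = 0.0673) and held without dal-2 replicate 1. GLK2 differed by -2.22 (SE 0.649, 95% interval -3.71 to -0.74) and was not called (edgeR adjusted p = 0.0852). It was called by DESeq2 (adjusted p = 0.00781), without dal-2 replicate 1 (adjusted p = 0.0318) and without dal-2 replicate 2 (adjusted p = 0.00174). For the other 4 members the differences lay between -0.26 and 0.34, and all their intervals included 0, the widest being that of CGA1 (-1.94 to 1.41). For CGA1 the difference was 0.41 without dal-2 replicate 1, -1.60 without dal-2 replicate 2 and 0.057 without Col-0 replicate 1. Its sign thus depended on the library left out.

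Ratios between paralogues within a library do not depend on depth. GLK1 over GLK2, in RPKM, was 0.704 and 0.310 in dal-2 and 1.22 and 1.14 in DIF-OX2 on Dex. In the other 6 libraries it lay between 0.686 and 0.975. GLK1 was thus the higher of the pair in the 2 induced libraries alone, and the ratio in dal-2 replicate 2 was the lowest of all 10. GNC over CGA1 was 3.46 and 1.21 in dal-2, against 0.774 to 1.32 in the other 8 libraries, so the high ratio belonged to dal-2 replicate 1, in which CGA1 was at 4.64 CPM.

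**Figure D4:**
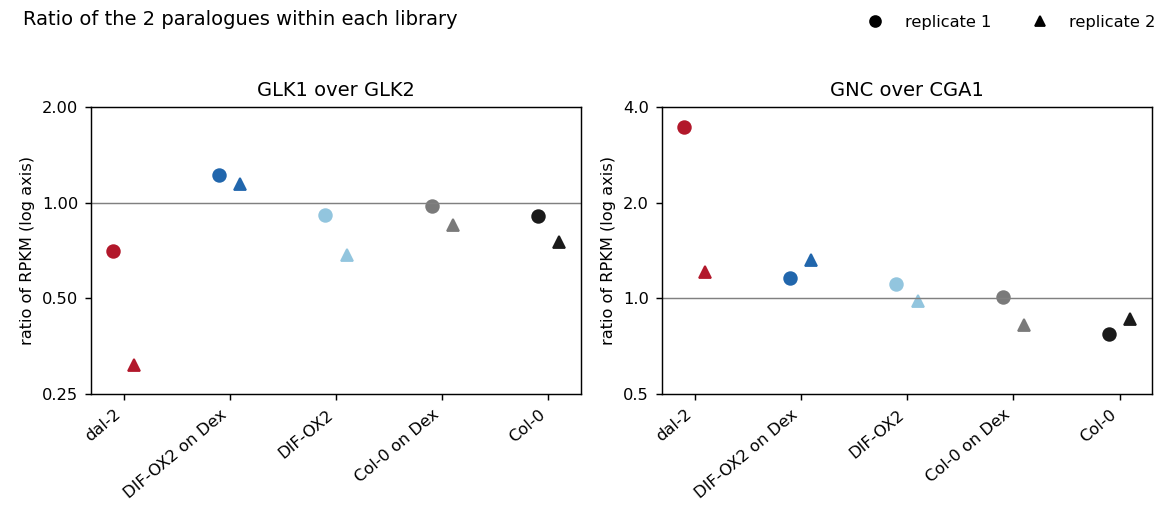
Ratio of 2 paralogues in each library, from levels in RPKM, on log axes. Circles are replicate 1 and triangles replicate 2, and the grey line marks equal levels. GLK1 over GLK2 is above 1 in both DIF-OX2 on Dex libraries and lowest in dal-2 replicate 2 (0.310), and GNC over CGA1 reaches 3.46 in dal-2 replicate 1.

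Genes that act around the members were read from lists, each with its count of calls (background 15.9% higher and 18% lower for dal-2, 11.6% higher and 10.4% lower for DIF-OX2 on Dex). The median log2 fold change of all tested genes was 0.03 in dal-2 and 0.01 in DIF-OX2 on Dex. Transcripts of chlorophyll synthesis and light harvesting, which GLK factors are known to switch on, fell throughout in dal-2. The part of the GLK factors in this fall was not tested. All 16 chlorophyll synthesis genes were called lower there (median -2.53), and 9 of 16 were called lower in DIF-OX2 on Dex (median -1.25). In DIF-OX2 on Dex 14 of the 16 had an unadjusted p under 0.05 by edgeR, against 35.9% of all genes. CAO, which makes chlorophyll b, had 11.6 and 59.3 CPM in dal-2, against 592.2 and 560.4 CPM in Col-0 (log2 fold change -4.02, edgeR adjusted p = 0.00257). In DIF-OX2 on Dex, PORC, a protochlorophyllide reductase, had 143.1 and 91.4 CPM, against 288.8 and 286.0 CPM in Col-0 on Dex (log2 fold change -1.29, edgeR adjusted p = 0.00611). CHLM, a methyltransferase of the same pathway, had 216.9 and 141.0 CPM, against 426.8 and 471.4 CPM (log2 fold change -1.33, edgeR adjusted p = 0.0295).

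All 20 genes of the light harvesting antenna were called lower in dal-2 (median -4.26) and 11 of 20 in DIF-OX2 on Dex (median -1.57). In DIF-OX2 on Dex 16 of the 20 had an unadjusted p under 0.05 by edgeR. LHCB2.3 had 1.09 and 6.44 CPM in dal-2, against 1483 and 1827 CPM in Col-0 (log2 fold change -8.75, edgeR adjusted p = 2.88e-04), and LHCB1.4 had 3.96 and 8.66 CPM, against 1504 and 2144 CPM (log2 fold change -8.16, edgeR adjusted p = 9.19e-05). In DIF-OX2 on Dex the log2 fold changes of these 2 genes were -2.47 (edgeR adjusted p = 0.0206) and -2.20 (edgeR adjusted p = 0.00677). Genes of the LHCB1 and LHCB2 families are close copies, and reads may be split between them. The counts for both lists in dal-2 were the same without either dal-2 library. Of the green shoot markers, LHCB3 is itself 1 of these 20 genes (log2 fold change -4.69 in dal-2). RBCS1A (-3.14) and RCA (-2.88) were lower too, and RCA had 385.0 and 3362 CPM in the 2 dal-2 libraries, against 13470 and 14070 CPM in Col-0.

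**Figure D5:**
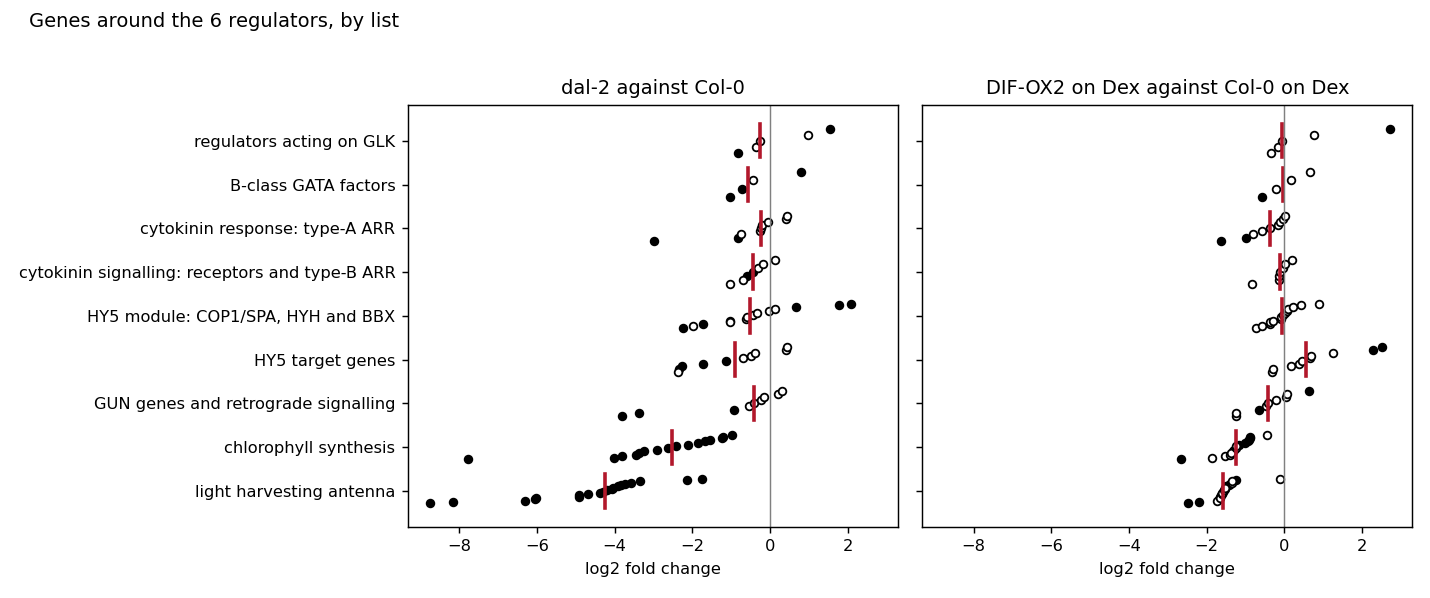
Log2 fold changes of the genes around the regulators, 1 point per gene, in the 2 main comparisons. Filled points were called at an adjusted p of 0.05 over all tested genes, open points were not, and red bars are medians. The antenna and chlorophyll lists lie wholly below 0 in dal-2, with medians of -4.26 and -2.53, and 2 HY5 target genes lie above 2 in DIF-OX2 on Dex.

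Of 5 regulators known to act on GLK genes or proteins, 1 was higher and 1 lower in dal-2. ORE1, a senescence NAC factor that binds GLK proteins, had 10.4 and 21.2 CPM in dal-2, against 5.46 and 5.50 CPM in Col-0 (log2 fold change 1.53, edgeR adjusted p = 0.00706). Without dal-2 replicate 1 the count was 2 higher and 0 lower, and without replicate 2 it was 1 higher and 2 lower. BES1, a brassinosteroid-activated factor, had 112.9 and 170.8 CPM in dal-2, against 241.8 and 264.1 CPM in Col-0 (log2 fold change -0.83, edgeR adjusted p = 0.0255), a call that ended without dal-2 replicate 1. In DIF-OX2 on Dex only ATAF1, a NAC factor known to repress GLK1 and to raise ORE1, was called. It had 173.4 and 208.6 CPM there, against 31.4 and 26.4 CPM in Col-0 on Dex (log2 fold change 2.73, edgeR adjusted p = 0.00701). In dal-2, ATAF1 had 27.0 and 90.5 CPM, against 35.8 and 23.8 CPM in Col-0.

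Among the other B-class GATA factors, 4 of 5 were tested. GATA16 was higher in dal-2 (10.0 and 8.49 CPM, against 4.12 and 6.47 CPM in Col-0, log2 fold change 0.80). GATA17L was lower in both comparisons, with 19.9 and 18.2 CPM in dal-2, against 38.5 and 39.6 CPM in Col-0, and 22.7 and 20.2 CPM in DIF-OX2 on Dex, against 33.1 and 30.1 CPM in Col-0 on Dex. Its log2 fold changes were -1.04 (edgeR adjusted p = 6.32e-04) and -0.56 (edgeR adjusted p = 0.0119). GATA15 was lower in dal-2 (log2 fold change -0.73, edgeR adjusted p = 0.0282). GATA16 was no longer among the calls when dal-2 replicate 1 was left out, which gave 0 higher and 2 lower genes.

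Cytokinin induces GNC and CGA1, and type-A ARR genes, which damp cytokinin signalling and are induced by it, report on that pathway. Of 9 tested, 2 were lower in dal-2 and 2 in DIF-OX2 on Dex, and none was higher. ARR15 was lower in both, with 0.682 and 1.61 CPM in dal-2, against 10.0 and 8.84 CPM in Col-0, and 2.69 and 2.43 CPM in DIF-OX2 on Dex, against 9.20 and 6.61 CPM in Col-0 on Dex. Its log2 fold changes were -3.00 (edgeR adjusted p = 7.06e-04) and -1.62 (edgeR adjusted p = 0.0106). ARR9 was lower in dal-2 (-0.82, edgeR adjusted p = 0.0376) and ARR4 in DIF-OX2 on Dex (-0.99, edgeR adjusted p = 0.0359). Of 7 cytokinin receptors and type-B ARR factors, ARR10 (-0.45) and ARR12 (-0.59) were lower in dal-2. EdgeR called 0 of the 7 in DIF-OX2 on Dex, with 0 at an unadjusted p under 0.05. Without dal-2 replicate 1 the type-A list had 2 genes higher and 1 lower, and without replicate 2 it had 0 higher and 4 lower. The receptor and type-B list had 1 lower without dal-2 replicate 1 and 5 lower without replicate 2.

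The HY5 module, 14 genes for the COP1/SPA complex, the HY5 homologue HYH and BBX cofactors, had 3 genes higher and 3 lower in dal-2. EdgeR called 0 of the 14 in DIF-OX2 on Dex, with 1 at an unadjusted p under 0.05. BBX22, which promotes HY5 activity, had 95.6 and 27.3 CPM in dal-2, against 15.2 and 13.7 CPM in Col-0 (log2 fold change 2.09, edgeR adjusted p = 0.0136). BBX20, another promoting cofactor, had 7.51 and 10.2 CPM in dal-2, against 2.45 and 2.70 CPM in Col-0 (log2 fold change 1.78, edgeR adjusted p = 0.00362). SPA3, a partner of COP1, had 12.4 and 51.7 CPM in dal-2, against 123.8 and 89.3 CPM in Col-0 (log2 fold change -1.73, edgeR adjusted p = 0.0423). BBX24, which counters HY5, had 94.4 and 230.1 CPM in dal-2, against 330.5 and 329.3 CPM in Col-0 (log2 fold change -1.02, edgeR adjusted p = 0.0486). BBX22, SPA3 and BBX24 lay further from wild type in dal-2 replicate 1 than in replicate 2. Without replicate 1 there were 3 higher and 2 lower, and without replicate 2 there were 2 higher and 8 lower.

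Of 10 target genes of HY5, 4 were lower in dal-2 and 0 higher, while 2 were higher in DIF-OX2 on Dex and 0 lower. The dal-2 count was 3 lower without replicate 1 and 6 lower without replicate 2. The same 2 genes moved in opposite directions, the early light-induced proteins ELIP1 and ELIP2, which protect thylakoids under excess light. ELIP1 had 3.55 and 2.72 CPM in dal-2, against 22.1 and 9.92 CPM in Col-0, and 66.3 and 53.2 CPM in DIF-OX2 on Dex, against 16.3 and 8.38 CPM in Col-0 on Dex. Its log2 fold changes were -2.35 (edgeR adjusted p = 0.0116) and 2.29 (edgeR adjusted p = 0.0123). ELIP2 had 1.84 and 2.39 CPM in dal-2, against 12.2 and 8.20 CPM in Col-0, and 47.2 and 36.8 CPM in DIF-OX2 on Dex, against 9.20 and 5.72 CPM in Col-0 on Dex. Its log2 fold changes were -2.26 (edgeR adjusted p = 0.00176) and 2.50 (edgeR adjusted p = 0.00122). The test of the difference between both effects called each gene, at -4.64 for ELIP1 (edgeR adjusted p = 0.0112) and -4.76 for ELIP2 (edgeR adjusted p = 0.00176). Both had been named for their large changes in these same comparisons. HY5 itself lay slightly above wild type in both, at 0.40 and 0.33 on the log2 scale, and was called in neither.

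Of the 9 tested genes of GUN and retrograde signalling other than GUN1, 3 were lower in dal-2. GUN4, which activates magnesium chelatase, had 4.98 and 29.6 CPM in dal-2, against 244.2 and 247.9 CPM in Col-0 (log2 fold change -3.82, edgeR adjusted p = 0.00421). CHLH, the chelatase subunit encoded by GUN5, had 125.8 and 555.8 CPM in dal-2, against 3564 and 3513 CPM in Col-0 (log2 fold change -3.38, edgeR adjusted p = 0.00468). GUN4 and CHLH also belong to chlorophyll synthesis, and the third gene was HO1, the haem oxygenase encoded by GUN2, which was named after its value was seen (log2 fold change -0.94, edgeR adjusted p = 0.00566). In DIF-OX2 on Dex the ferrochelatase gene FC1, whose gain of function gives a gun phenotype, was higher (85.1 and 93.3 CPM, against 60.9 and 54.1 CPM in Col-0 on Dex, log2 fold change 0.63, edgeR adjusted p = 0.0137). EX1, a mediator of singlet oxygen signals, was lower there (80.7 and 65.1 CPM, against 118.3 and 112.2 CPM in Col-0 on Dex, log2 fold change -0.66, edgeR adjusted p = 0.0497). Without dal-2 replicate 2 the dal-2 count was 1 higher and 5 lower, and without replicate 1 it was 0 higher and 3 lower.

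Across the 10 libraries, the genes whose log2 CPM was most like that of each member were found by Pearson's r among 15777 genes with a mean of at least 5 CPM. These are descriptions over 5 groups of 2 that share their scaling, and r takes no account of the size of a change. GLK1 was most like GGPS1 (r = 0.994), a plastid geranylgeranyl diphosphate synthase, and BAM2 (r = 0.994), although GGPS1 ranged only from 28.3 to 74.8 CPM. GLK2 was most like AT1G44000 (r = 0.998) and ABCB26 (r = 0.998), which ranged from 16.1 to 214.7 and from 18.8 to 121.7 CPM. For GNC the nearest genes were AT1G62975 (r = 0.959) and AT3G26920 (r = 0.947), and for CGA1 AT4G33660 (r = 0.980) and SK20 (r = 0.978). HY5 was most like EDA7 (r = 0.952) and ASHR2 (r = 0.951), and GUN1 most like AT2G34170 (r = 0.986) and AT4G40045 (r = 0.985). No member was among the 2 genes nearest to another. Between members, r was 0.96 for GLK1 with GLK2, 0.892 for GUN1 with GLK1 and 0.899 for GUN1 with GLK2. It was 0.773 for GNC with CGA1 but 0.140 for GNC with GLK1, and negative for HY5 with every other member.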

How the data were processed

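Whole-seedling RNA was made into Illumina TruSeq libraries, per the labels' protocols. The authors deposited raw read counts per gene; per the submitters' processing notes Trimmomatic, TopHat2, HTSeq and the TAIR10 build were used, with no versions, and strand and multiple-alignment settings are not given in the sources used here. The table has 33602 genes and 0 columns of no sample.

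Counts were analysed in R 4.3.3 with edgeR 4.0.16. filterByExpr kept 20681 genes and removed 12921, and libraries were scaled by TMM. The quasi-likelihood fit used every library, with a mean for each of the 5 groups. It had 5 residual and 3.27 prior degrees of freedom, and a common BCV of 0.188. In each of 7 comparisons, genes were called at a Benjamini-Hochberg adjusted p of 0.05 across the 20681 genes. The SE is the fold change over the square root of F. RPKM divides CPM by the exon length in RefSeq TAIR10.1. DESeq2 1.42.0, limma-voom (limma 3.58.1), other scaling and filters, a replicate block and left-out libraries were alternatives.

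Replicate libraries differed by more than sampling noise (chi-square per gene 6.88 to 68.5). The 6 members and the 13 lists were chosen with earlier results of these data known. Named genes are the members, DAL, up to 2 rises and 2 falls per list and main comparison (mean count of at least 50), and the 2 genes most like each member. BBX21, BBX32, CHS and FLS1 were called in dal-2 but lie outside that rule and are counted only. Of the list genes, GATA23, ARR17, ABI4, AP1 and AP3 had too few counts to test. Sequences come from RefSeq TAIR10.1.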

Additional observations from a re-analysis of the deposited data

Results flagged for a closer look

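The effect of dal-2 and the effect of DIF induction, each against its own wild type, differed for 6 named genes by a test of the difference itself in edgeR. Of all tested genes, 6.07% were called in this test. All but GLK1 were named for having the largest called changes of their lists in these same 2 comparisons. GLK1 is 1 of the 6 members, which were chosen with earlier results of these data known. The number of these genes is therefore no independent result. GLK1 differed by -3.65 on the log2 scale (adjusted p = 0.0107), with -4.55 in dal-2 and -0.90 in DIF-OX2 on Dex. ELIP1 differed by -4.64 (adjusted p = 0.0112) and ELIP2 by -4.76 (adjusted p = 0.00176), and these are the 2 genes that were lower in dal-2 and higher in DIF-OX2 on Dex. PORC differed by -2.17 (adjusted p = 0.00988), LHCB1.4 by -5.97 (adjusted p = 0.00203) and LHCB2.3 by -6.28 (adjusted p = 0.00795), and these 3 were lower in both. Age differs along with genotype in dal-2, and the 2 cannot be told apart.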

How the results depend on the processing

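With 2 libraries per group the calls of single members are limited by 5 residual degrees of freedom, and CGA1 had the widest interval of the 6 members in all 7 comparisons. The dal-2 count of 3 members stayed within 2 to 4 over left-out libraries. The count for DIF-OX2 on Dex against Col-0 on Dex was 0, and became 1 with DESeq2, 1 with the replicate block, 2 without both dal-2 libraries, 3 in the libraries of the comparison alone (4522, 5008, 7065 and 6892 calls over all genes, against 4549), and 0 to 3 over left-out libraries. The interaction count of 0 became 1 without both dal-2 libraries and 1 in its own libraries, with 0 to 1 over left-out libraries. For Dex in DIF-OX2 the range was 0 to 4, for Dex in Col-0 and for DIF-OX2 against Col-0 without Dex 0 to 0. The difference between the dal-2 and DIF-OX2 effects had 2 members called with DESeq2 and 0 to 3 over left-out libraries. The causes were not tested.

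Replicate numbers paired the libraries only in part. Differences between replicates 1 and 2 correlated between groups at -0.0962 to 0.413 over 10 pairs of groups, over 0.1 in 4 of them. The highest were among Col-0, Col-0 on Dex and DIF-OX2, at 0.251 to 0.413. With the replicate block GLK1 was called in DIF-OX2 on Dex against Col-0 on Dex (-0.92, adjusted p = 0.0453) and in Dex in DIF-OX2 (-1.06, adjusted p = 0.0273), and CGA1 in Dex in DIF-OX2 was not (-1.73, adjusted p = 0.0556).

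All values that changed sign were uncalled both in the reported fit and in the alternative. For Dex in Col-0, HY5 became 5e-04 with a filter of 5 CPM, and GUN1 became 0.0016 with DESeq2 size factors, 0.0024 with no filter, 0.0107 with a filter of 5 CPM and 0.0014 with DESeq2. Over all left-out libraries the values were, for Dex in Col-0, GLK1 -0.53 to 0.27, HY5 -0.15 to 0.18 and GUN1 -0.11 to 0.12. For DIF-OX2 against Col-0 without Dex they were GLK1 -0.45 to 0.43, GLK2 -0.21 to 0.32, CGA1 -0.39 to 0.093, HY5 -0.18 to 0.32 and GUN1 -0.067 to 0.11, and for the difference between effects CGA1 -1.60 to 0.41 and HY5 -0.074 to 0.30. Of 744 refitted member values, 667 kept their direction and side of the threshold, 29 gained a call, 20 lost one and 28 changed sign. Mean levels under other scalings and filters moved by less than the replicate spread in 89 of 90 cases, the exception being GUN1 in dal-2 (234.9 CPM with a filter of 5 CPM). The counts of list genes without 1 dal-2 library were added after the clock genes had been seen.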
